A study of Mus musculus with 10 samples.

Results

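The insulin-like growth factor (IGF) genes examined here were the ligands Igf1 and Igf2, the receptors Igf1r and Igf2r, the binding proteins Igfbp3, Igfbp4, Igfbp5, Igfbp6 and Igfbp7, and the mRNA-binding protein Igf2bp3. They were chosen by name, as the probes whose annotated accession maps to 1 of these symbols, and each gene was represented by its brightest probe, the one with the highest mean over all 10 arrays. A probe was found for 9 of the 10 genes, among 19096 genes with a named probe, and 17 probes covered these 9 genes. No probe was paired with Igfbp6, which is not analysed here.

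IGF1 and IGF2 are small secreted proteins related to insulin that bind the receptor tyrosine kinase encoded by Igf1r and signal through docking proteins, PI3K and AKT to growth and survival. The receptor encoded by Igf2r has no kinase and carries IGF2 to the lysosome for breakdown. Secreted IGF binding proteins hold the ligands in the tissue and in plasma, and can restrain or prolong their action.

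RNA was compared between 5 samples of whole lung from wild-type mice (WT, genotype Lkb1f/f) and 5 whole lung squamous cell carcinomas (SCC) of CCSPiCreLkb1f/f mice, all of strain B6.129 and 13 months old per the labels, on single-colour Agilent mouse arrays. Lkb1 encodes a tumour suppressor kinase, and the comparison asked which genes differ when a squamous tumour forms after its deletion. The WT mice carried the same floxed alleles as the tumour mice. In the tumour mice Cre is driven from the CCSP (Scgb1a1) locus, which is active in airway epithelium, so stroma, vessels and blood cells of the tumour were not targeted by the deletion. The reference tissue was whole lung and not the airway epithelium from which a tumour may arise. The labels do not say that each replicate is a separate animal, so the p-values measure only the spread between these samples. In bulk samples of this kind, fewer cells of a type and less RNA per cell cannot be told apart.

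The squamous label was checked against 6 markers of squamous cells (Krt5, Krt14, Krt6a, Trp63, Dsg3 and Sox2). Krt5, Krt14, Trp63 and Sox2 were above background on every array and were higher in SCC. Their mean level ran from 5.03 to 5.39 log2 units on the WT arrays and from 11.63 to 14.35 on the SCC arrays. Krt6a and Dsg3 were above background on every SCC array and on no WT array, so the WT mean includes undetected values. They entered the test through the SCC arrays alone, and no difference is given for them. SCC 2 had the lowest squamous level, 11.63, while the other 4 tumours were at 14.03 or above. SCC 2 was also the only tumour with Xist, the transcript of the inactive X chromosome, at a low level (2.58), as were WT 2 (4.33) and WT 3 (2.27). The other 7 arrays had Xist at 13.75 or above, and SCC 5 combined Xist at 13.75 with the Y-linked Ddx3y at 8.34. On SCC 5, 90.2% of probes were well above background, against 71.0% to 74.5% on the other arrays. The number of arrays limits the precision of every value below.

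Of the 8 IGF genes whose brightest probe could be tested, 4 were called, that is, they differed by 2-fold or more and had a limma adjusted p under 0.05. Igf1 and Igfbp3 were higher in SCC, and Igf2 and Igfbp5 were lower. These 4 of 8 genes (50%) stand beside 24.9% of all 15586 tested genes called by the same rule, 11.6% higher and 13.4% lower. Igf2r and Igfbp7 passed the adjusted p with less than a 2-fold difference, which made 6 of 8 genes by p alone, beside 53.9% of all tested genes. Igf1r and Igfbp4 did not pass. The values of both groups did not overlap for 5 of the 8 genes, beside 41.4% of all tested genes. Counted by probe, 8 of 15 tested probes of these genes were called, 4 higher and 4 lower, beside 22.9% of all 30374 tested probes (9.92% higher and 13.0% lower). By adjusted p alone 11 of the 15 passed, beside 49.0% of all probes, and 8 had no overlap between groups, beside 37.4%. The higher probes include 1 of Igf2bp3 that entered the test through the SCC arrays alone and is given no fold below. Probes of 1 gene share their transcript and are not independent. The median difference of the 8 genes was 0.08 log2 units and that of all tested genes was -0.04. All differences are SCC minus WT in log2 units of normalised signal, and levels are not compared between probes, because probes differ in brightness for the same amount of RNA.

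**Figure D1:**
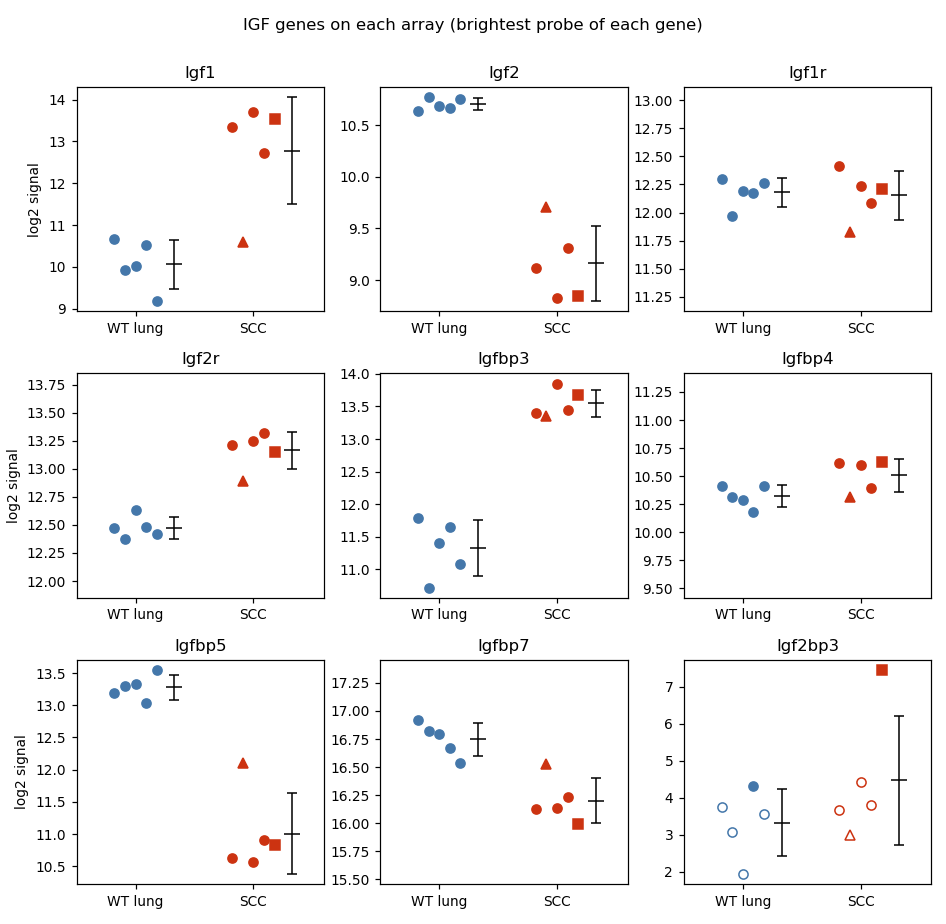
Normalised log2 signal (vertical axes, each with its own range) of the brightest probe of 9 IGF genes on 5 WT and 5 SCC arrays. Points are arrays, the SCC triangle is SCC 2 and the SCC square is SCC 5, open symbols are not well above background, and bars give the mean and SD. Igf2, Igf2r, Igfbp3, Igfbp5 and Igfbp7 have no overlap between groups, and SCC 2 lies in the WT range for Igf1.

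Igf1, the ligand made largely by mesenchymal cells and macrophages in tissue and by the liver for the circulation, was the ligand that rose. Its brightest probe was at 10.66, 9.92, 10.01, 10.53 and 9.18 log2 units on WT 1 to 5, and at 13.34, 10.60, 13.69, 12.73 and 13.54 on SCC 1 to 5. Thus 4 tumours lay above every WT lung, whereas SCC 2 lay within the WT range. The difference was 2.72 (SE 0.57, 6.59-fold, limma adjusted p 0.00339, exact two-sided permutation p 0.0159, n = 5 each). Without SCC 2 it was 3.27. The second Igf1 probe separated the groups fully, with WT arrays at 8.41, 8.20, 8.47, 8.58 and 7.78 and SCC arrays at 10.33, 10.13, 10.85, 10.20 and 10.54. On this probe SCC 2 was above every WT lung, and the difference was 2.12 (SE 0.19, limma adjusted p 2.38e-05). The arrays lay on 3 slides, and only slide 2 held both groups, with WT 5 against SCC 1 to 3. With slide as a block the Igf1 difference was 3.36 with a limma adjusted p of 0.0769, so the call was lost, and it equals the difference within slide 2.

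On the brightest Igf1 probe SCC 2 stood below the other tumours, as it did in mean macrophage, neutrophil and squamous marker levels. The second Igf1 probe kept SCC 2 with the other tumours. The mean of 6 macrophage markers (Cd68, Adgre1, Marco, Mrc1, Csf1r and Itgax) ran from 12.45 to 12.95 on the WT arrays. It was 12.46 on SCC 2 and at least 13.58 on the other tumours. Within that list Cd68 and Itgax were called higher, Mrc1 passed the adjusted p upward and Marco and Csf1r downward with less than a 2-fold difference, and Adgre1 did not pass. Of 5 neutrophil markers (S100a8, S100a9, Csf3r, Retnlg and Mmp8), S100a8, Csf3r and Mmp8 were called higher, and the mean of the list was 10.67 on SCC 2 and at least 12.91 on the other tumours, against 10.77 to 11.72 in WT lungs. Every marker of both lists was above background on all 10 arrays, and the part of these cells in the Igf1 difference was not tested. Fibroblast markers, as a list of 7, were at 13.43 to 13.62 in WT lungs and 11.99 to 13.14 in tumours. Of these Pdgfra, Dcn, Lum and Tcf21 were called lower, Col1a1 and Col3a1 passed the adjusted p upward by less than 2-fold, and Col1a2 did not pass. With slide as a block the calls of Cd68 (limma adjusted p 0.101), Itgax (0.257), Pdgfra (0.0679) and Tcf21 (0.0584) were lost.

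**Figure D2:**
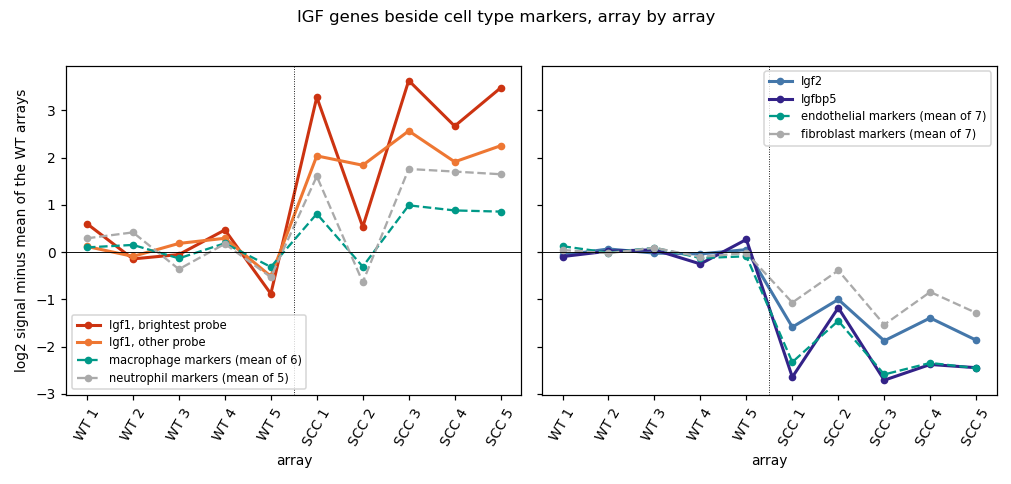
Log2 signal minus the mean of the WT arrays (vertical axis) on each of the 10 arrays (horizontal axis), for both Igf1 probes beside macrophage and neutrophil markers (left) and for Igf2 and Igfbp5 beside endothelial and fibroblast markers (right). Solid lines are genes and dashed lines are means of marker lists. On SCC 2 the brightest Igf1 probe lies within the range of the WT arrays and both myeloid lists lie below the WT mean, and Igf2, Igfbp5 and both lists on the right are closer to WT on SCC 2 than on the other tumours.

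Among 14102 genes above background on all arrays, the ones whose centred profile over the 10 arrays lay closest to that of Igf1 were Lhfpl2, Ctsk and Clec5a. The root mean square distance from the Igf1 profile was 0.21 log2 units for Lhfpl2, 0.30 for Ctsk, which encodes the protease cathepsin K, and 0.31 for Clec5a, a receptor of myeloid cells. SCC 2 was the lowest tumour for all 3 genes, at 7.91 for Lhfpl2, 11.88 for Ctsk and 10.56 for Clec5a. The other tumours were at or above 10.36, 14.53 and 12.52, respectively.

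The sequence before the Igf1 start is shown because Igf1 had the largest rise among the 8 tested genes by brightest probe. Its second probe rose by 2.12, less than Igfbp3 at 2.22. RefSeq promoters (build GRCm38.p6) matched all 10 genes, and the 250 bases before the start were searched on both strands. The letters TATAAA were taken as a TATA box, and a variant, TATATA, was added after the sequences had been seen. A GC box was read as the letters GGGCGG. A further search covered the box named CCAAT after its letters. Sites of the factor AP-1 were read as TGANTCA. Over 32851 promoters of this length, 15.6% held the TATA letters, 32.7% the GC box, 33.8% the CCAAT box and 6.75% the AP-1 letters. The Igf1 window, chr10:87860861-87861110 on the plus strand, held a CCAAT box on the other strand beginning 142 bases before the start and AP-1 letters beginning 37 bases before it, both in capitals here.
Igf1: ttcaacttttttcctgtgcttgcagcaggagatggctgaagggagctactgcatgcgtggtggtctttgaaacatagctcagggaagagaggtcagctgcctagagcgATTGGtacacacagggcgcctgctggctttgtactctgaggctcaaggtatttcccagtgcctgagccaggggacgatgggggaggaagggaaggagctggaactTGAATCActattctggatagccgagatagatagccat
A match of letters is a description of the sequence only, and no binding was measured.

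Igf2, the ligand best known from fetal growth and expressed from the paternal allele, fell. It was at 10.64, 10.77, 10.68, 10.67 and 10.76 log2 units on WT 1 to 5, and at 9.12, 9.70, 8.83, 9.31 and 8.84 on SCC 1 to 5. All 5 tumours lay below every WT lung, and the WT lungs stayed within a narrow range. The difference was -1.54 (SE 0.16, 2.91-fold lower, limma adjusted p 6.25e-05, exact permutation p 0.00794, the smallest that 5 against 5 arrays allow). The second Igf2 probe differed by -1.62 (SE 0.26, limma adjusted p 0.000821), again without overlap. The brightest probe differed by -1.54 with slide as a block (limma adjusted p 0.0241). SCC 2, the tumour with the lowest squamous level, had the highest Igf2 level of the tumours on both probes. Igf2 and Igf1 thus differed in opposite directions in these tumours.

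Neither receptor was called. Igf1r, the signalling receptor of both ligands, was at 12.30, 11.97, 12.20, 12.17 and 12.27 log2 units on WT 1 to 5, and at 12.41, 11.83, 12.23, 12.09 and 12.21 on SCC 1 to 5. The groups overlapped throughout, with a difference of -0.03 (SE 0.12, limma adjusted p 0.871). The 2 other Igf1r probes differed by 0.25 (SE 0.14, limma adjusted p 0.166) and 0.33 (SE 0.27, limma adjusted p 0.338), so neither a direction nor a difference was established for this gene. These values do not show that the level was the same.

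Igf2r, the receptor that clears IGF2, was higher in every tumour. It was at 12.47, 12.37, 12.63, 12.48 and 12.42 log2 units in WT lungs and at 13.21, 12.90, 13.25, 13.32 and 13.15 in tumours. The groups did not overlap, with SCC 2 the closest to WT. The difference was 0.69 (SE 0.10, 1.61-fold, limma adjusted p 0.000414), under 2-fold and therefore not called. Blocking on slide gave 0.70 with a limma adjusted p of 0.0571, which no longer passed. Igf2 was lower and Igf2r was higher on the same 5 tumours, and no relation between both genes was tested.

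Igfbp3, which carries most IGF in plasma and is also secreted by epithelial cells, was the binding protein that rose. It was at 11.79, 10.72, 11.41, 11.65 and 11.09 log2 units on WT 1 to 5, and at 13.40, 13.36, 13.85, 13.45 and 13.68 on SCC 1 to 5. All tumours lay above every WT lung, and here SCC 2 (13.36) was close to SCC 1 (13.40), while its squamous level was lower. The difference was 2.22 (SE 0.20, 4.64-fold, limma adjusted p 3.13e-05, exact permutation p 0.00794). It was 2.45 with slide as a block (limma adjusted p 0.0117). Among the same 14102 genes, the profiles closest to Igfbp3 were those of Brca1, a DNA repair gene, at a root mean square distance of 0.21, St14, which encodes the epithelial protease matriptase, at 0.24, and Chdh, a choline dehydrogenase, at 0.24. These distances describe 10 arrays that share the contrast of tumour and lung.

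The Igfbp3 window is shown as the promoter of the binding protein that rose. It lay at chr11:7213924-7214173 on the minus strand and held TATA letters, in capitals, beginning 30 bases before the start, and no other searched motif. These letters are the TATATA variant that was added after the sequences had been seen.
Igfbp3: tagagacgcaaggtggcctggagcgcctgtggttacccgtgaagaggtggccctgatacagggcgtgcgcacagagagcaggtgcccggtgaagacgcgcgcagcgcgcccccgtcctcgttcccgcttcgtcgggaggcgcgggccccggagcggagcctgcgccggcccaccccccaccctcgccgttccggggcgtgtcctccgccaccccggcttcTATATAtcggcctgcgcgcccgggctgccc
Its GC content was 73.2%, against 52.8% for the Igf1 window and a median of 52.4% over all promoters.

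Igfbp5, a binding protein that attaches to extracellular matrix, had the largest fall among the 8 tested genes. It was at 13.18, 13.30, 13.33, 13.03 and 13.55 log2 units on WT 1 to 5, and at 10.63, 12.10, 10.57, 10.90 and 10.83 on SCC 1 to 5. Every tumour was below every WT lung, but SCC 2 stood apart from the other tumours by more than 1 log2 unit. The difference was -2.27 (SE 0.27, 4.82-fold lower, limma adjusted p 0.000131, exact permutation p 0.00794), and it was -2.54 without SCC 2. The second Igfbp5 probe differed by -2.00 (SE 0.16, limma adjusted p 1.37e-05), and there SCC 2 lay among the other tumours at 5.16, within their range of 5.00 to 5.38. With slide as a block the brightest probe differed by -2.45 (limma adjusted p 0.0263).

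The Igfbp5 window is shown as the counterpart that fell. It lay at chr1:72874866-72875115 on the minus strand, held none of the searched letters and had a GC content of 58.8%.
Igfbp5: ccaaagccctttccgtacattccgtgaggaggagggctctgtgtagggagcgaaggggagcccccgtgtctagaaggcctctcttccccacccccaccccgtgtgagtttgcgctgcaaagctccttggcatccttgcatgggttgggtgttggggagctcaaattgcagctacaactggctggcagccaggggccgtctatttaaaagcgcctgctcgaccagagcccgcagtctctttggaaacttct
The absence of a match says only that these letters are not in this window.

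Endothelial markers fell on the same arrays as Igf2 and Igfbp5. All 7 of them (Pecam1, Cdh5, Kdr, Tie1, Tek, Vwf and Cldn5) were called lower, and their mean ran from 13.83 to 14.08 log2 units in WT lungs and from 11.37 to 12.50 in tumours, with SCC 2 the highest tumour. Of 4 mesothelial markers (Msln, Upk3b, Upk1b and Wt1), Msln was called lower, while Upk1b differed by 1.18 and did not pass (limma adjusted p 0.165). The mesothelial list ran from 10.49 to 11.00 in WT lungs and from 6.32 to 8.50 in tumours. Upk3b was above background on 3 and Wt1 on 2 of the 5 tumours. Both entered the test through the WT arrays alone, so their lower calls are not counted here. The tumour mean of this list includes undetected values. The list mean was lowest on SCC 2. Of the markers detected on every array, Msln was highest among tumours on SCC 2 (12.61) and Upk1b lowest (8.57). Smooth muscle and pericyte markers, 3 of 6 called lower, were at 11.71 to 12.18 in WT lungs and 10.95 to 11.74 in tumours, with SCC 4 the closest to WT. Lists of club, alveolar type 2 and cardiac muscle cells were closest to WT on SCC 2, as the endothelial list was. Club cell markers, both called lower, ran from 17.71 to 18.27 in WT lungs and from 15.44 to 17.80 in tumours. Alveolar type 2 markers, none of 4 called, ran from 15.30 to 15.45 and from 14.58 to 15.37. Of these Sftpb (-0.86, limma adjusted p 0.00954) and Lamp3 (-0.81, limma adjusted p 0.000643) passed the adjusted p downward with less than a 2-fold difference. Sftpc had the same normalised value, 18.80, on every WT array and on SCC 1 and SCC 2, so it says little about a change. Cardiac markers, 2 of 3 called lower, ran from 9.67 to 14.03 and from 8.15 to 9.78. The part of all these cells in the falls of Igf2 and Igfbp5 was not tested.

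The remaining binding proteins moved by less than 2-fold. Igfbp7, a low-affinity binding protein found in vessel walls, was at 16.92, 16.82, 16.79, 16.67 and 16.54 log2 units in WT lungs and at 16.13, 16.52, 16.13, 16.23 and 15.99 in tumours. The groups did not overlap, although SCC 2 lay just under WT 5. The difference was -0.55 (SE 0.12, limma adjusted p 0.00405), and it was -0.30 when arrays were scaled to their 75th percentile (limma adjusted p 0.027). Blocking on slide gave -0.28 with a limma adjusted p of 0.423, so it did not pass within slide 2.

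Igfbp4, which restrains IGF action until the protease PAPP-A cleaves it, was at 10.41, 10.32, 10.29, 10.18 and 10.42 log2 units in WT lungs and at 10.62, 10.31, 10.60, 10.39 and 10.62 in tumours. The groups overlapped, and the difference was 0.19 (SE 0.10, limma adjusted p 0.136), or 0.092 with slide as a block (limma adjusted p 0.793). Its second probe differed by 0.34 and passed (limma adjusted p 0.0304), as did the brightest probe without SCC 2 (0.23, limma adjusted p 0.037). Both values were far under 2-fold.

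Igf2bp3, a fetal mRNA-binding protein that binds Igf2 transcripts, was at the edge of detection. Its brightest probe was well above background only on WT 4, at 4.32 log2 units, and on SCC 5, at 7.45, and was not tested. A second probe was above background on SCC 1, 3, 4 and 5 (4.27, 4.58, 4.49 and 3.20) and on no WT array. It passed the filter only through the SCC arrays, and its SCC mean of 3.64 lay under the detection bound of 4.04, so no fold is given. The third probe was above background only on SCC 5, the array on which the most probes passed background. Detection of Igf2bp3 thus differed between its probes, and no level is drawn from it.

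**Figure D3:**
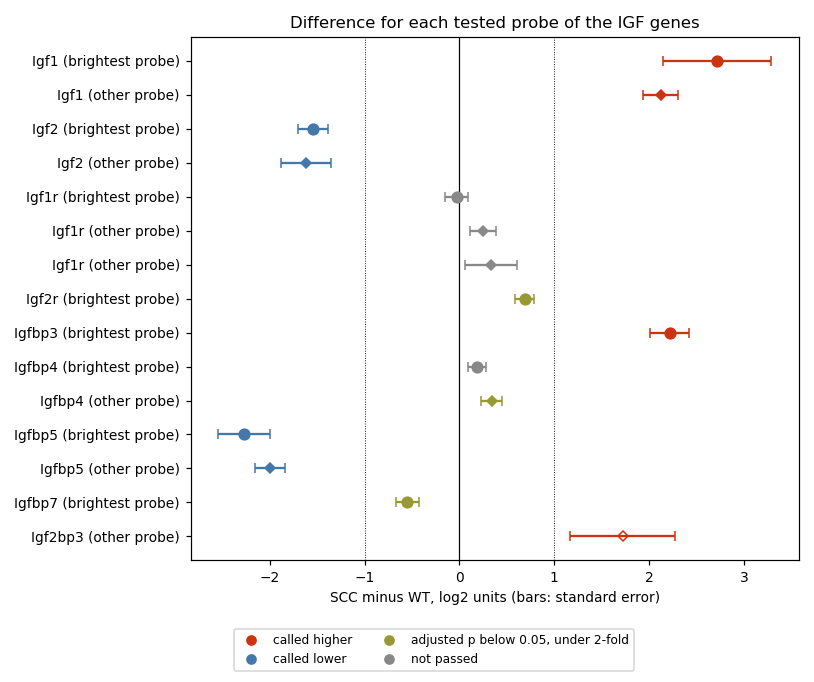
Difference between SCC and WT (horizontal axis, log2 units, bars are standard errors) for the 15 tested probes of the IGF genes. Circles are the brightest probes, diamonds the others, the open diamond is the Igf2bp3 probe that was not above background on any WT array and is given no fold, and dotted lines mark 2-fold. Both probes of Igf1, of Igf2 and of Igfbp5 lie on the same side of 0 and beyond 2-fold, and the 3 Igf1r probes lie between -0.03 and 0.33.

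A list of 39 other genes of the pathway was examined beside these members. A probe was found for 37 of them (none for Irs2 or H19), and 34 could be tested. Of these 1 was called higher and 3 lower (11.8%), beside the 24.9% of all tested genes. Another 9 passed the adjusted p with less than a 2-fold difference, 3 of them upward and 6 downward, and 21 did not pass. The median difference of the list was -0.06. Without SCC 2 the called genes were 7, 2 higher and 5 lower, and with slide as a block they were 2, both lower. Of all 30374 tested probes, 8135 were called without SCC 2 and 2988 with slide as a block.

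Among other binding proteins and carriers, Igfbp2, a binding protein with a preference for IGF2, was called lower. It was at 15.48, 15.17, 15.50, 14.97 and 15.39 log2 units on WT 1 to 5 and at 12.98, 13.72, 13.02, 13.55 and 13.15 on SCC 1 to 5, without overlap. The difference was -2.02 (SE 0.17, limma adjusted p 2.17e-05). Igfbp2 is the neighbour of Igfbp5 in gene order on chromosome 1, and both genes fell. Igfbp1, the neighbour of Igfbp3 on chromosome 11, was above background only on SCC 5 and was not tested, so the pair could not be compared. Igfals, the acid-labile subunit of the circulating complex, was near background, above it on 4 WT arrays but on only 1 SCC array. It entered the test through the WT arrays alone, so its difference of -0.26 (limma adjusted p 0.289) rests on mostly undetected SCC values.

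Of the proteases that cleave binding proteins and their inhibitors, Stc2 was called higher. Stc2 encodes stanniocalcin 2, an inhibitor of PAPP-A. It was at 7.92, 8.19, 8.03, 7.61 and 7.63 log2 units in WT lungs and at 10.80, 12.26, 9.02, 10.07 and 10.47 in tumours. The groups did not overlap, tumours were widely spread, and SCC 2 was the highest. The difference was 2.65 (SE 0.49, limma adjusted p 0.00172), and with slide as a block it was 3.06 (limma adjusted p 0.0803), which ends the call. Pappa itself differed by 0.15 (limma adjusted p 0.383), and Stc1, the related stanniocalcin, by 0.48 (limma adjusted p 0.339), which was 0.077 without SCC 5, the highest tumour at 9.11. On the other tested Stc1 probes SCC 5 was instead the lowest tumour, at 4.49 and 2.96. Pappa2 was not above background on any array.

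Among related receptors and docking proteins, each called gene was lower. Ghr, the growth hormone receptor that drives Igf1 expression in liver, fell by 1.78 (SE 0.21, limma adjusted p 0.000112). Irs1, a docking protein of the IGF and insulin receptors, differed by -1.13 on its brightest probe (SE 0.14, limma adjusted p 0.000192) but by -0.19 on its second probe (limma adjusted p 0.612). Blocking on slide gave -0.99 for the brightest Irs1 probe (limma adjusted p 0.0571). Insr, the insulin receptor, differed by -0.47 (limma adjusted p 0.0798) and by -0.67 without SCC 2 (limma adjusted p 0.000116).

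Of the paralogues of Igf2bp3, Igf2bp2 differed by 0.23 (limma adjusted p 0.634) and Igf2bp1 by -0.71 (SE 0.80, limma adjusted p 0.481), or -0.25 with 75th percentile scaling. The Igf2bp1 levels were spread most in tumours, from 4.10 on SCC 5 to 9.44 on SCC 4, against 6.74 to 7.56 in WT lungs. Neither brightest probe passed, but single left-out arrays changed that. Igf2bp2 differed by 0.58 without SCC 2 (limma adjusted p 0.0499). Igf2bp1 differed by -1.46 without SCC 4 (limma adjusted p 0.0328) but by -0.12 without SCC 5 (limma adjusted p 0.887). Its 2 dimmer probes were above background on all 5 WT arrays but only on 2 and 3 of the 5 SCC arrays, so no difference is given for them.

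**Figure D4:**
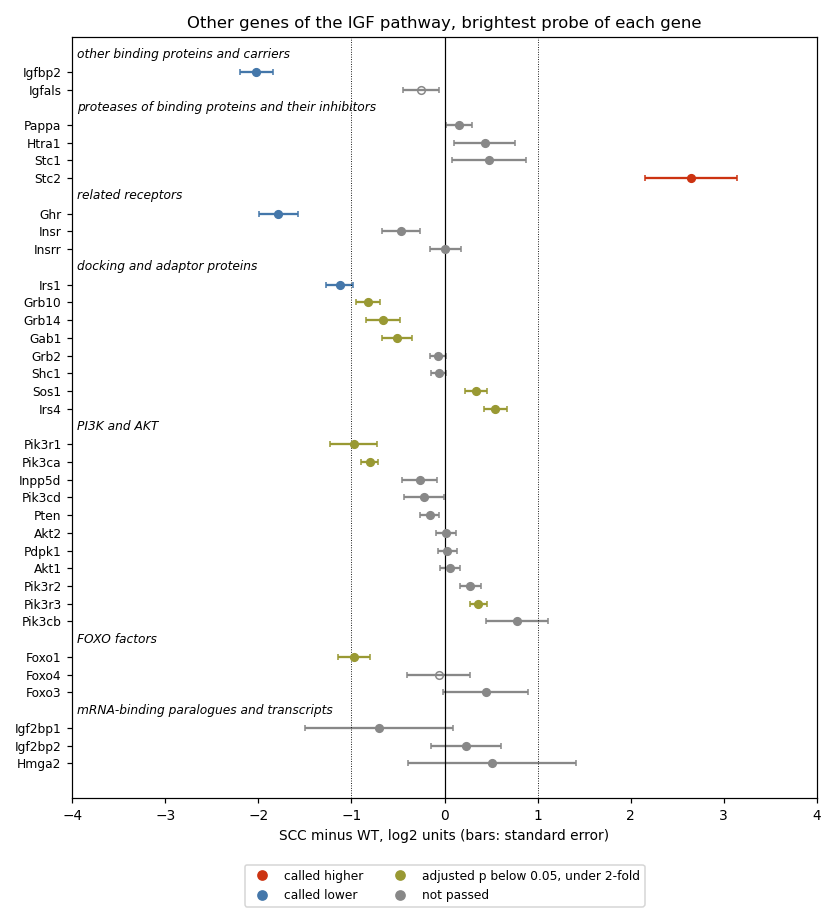
Difference between SCC and WT (horizontal axis, log2 units, bars are standard errors) for 34 tested pathway genes, grouped by role, by the brightest probe of each gene. Open circles were not above background on all 10 arrays, and dotted lines mark 2-fold. Stc2 lies beyond 2-fold to the right, and Igfbp2, Ghr and Irs1 to the left.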

How the data were processed

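Per the file headers, the authors extracted single-colour Agilent images with Feature Extraction 12.0.0.7, and the deposited scanner files hold background-subtracted processed intensity per spot. The authors also deposited log2 values that matched log2 quantile-normalised processed intensity (r of at least 0.9999 on each array). These values were used here to choose the brightest probe of each gene. The IGF genes, gene lists and tests were chosen with earlier results of these data known. Control and outlier spots were removed, spots of 1 probe averaged as log2 intensity and 41174 probes quantile-normalised, as in the methods. A probe was tested if well above background (at least 0.5 of its spots) on at least 4 of 5 arrays of 1 group, which left 30374 probes. In place of the one-way analysis of variance, moderated two-sided tests without covariates were run in limma 3.58.1 (R 4.3.3), with Benjamini-Hochberg adjustment over all tested probes. Probes were called at 2-fold or more with an adjusted p under 0.05. On simulated data of 30374 probes, 159 of 200 changes of 2 log2 units were recovered (79.5%), with 7 false calls. The simulation changed few probes and had independent noise without slide or array effects, so its rates do not carry over to this comparison. Symbols came from RefSeq (GRCm38.p6) by accession for 28223 probes (68.5%). The array grid names another build, so no probe coordinates are given, and promoter coordinates are those of GRCm38.p6. All named genes belong to fixed lists or to the 3 profiles closest to Igf1 and Igfbp3. Lkb1 itself is not analysed here, and 1 gene of the pathway list is not reported here and was left out of its counts and plot. Alternatives covered normalisation, background correction with an offset of 50 on median spot signals, filters, probes, slide, weights and left-out arrays.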

Additional observations from a re-analysis of the deposited data

Results flagged for a closer look

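In each group of 5 arrays the gap between the most extreme array and its nearest neighbour was divided by the range of the group and compared with a critical value of 0.71. Of 52 groups examined, 8 passed. Chance gives about 1 in 20 for a single group of independent values. The groups examined share the same arrays and are not independent, so their number is not read against that rate. On SCC 2 the Igfbp5 level of 12.10 stood above the other tumours (gap 0.783) and the Igf1r level of 11.05 on a dimmer probe stood below them (0.765). SCC 2 also stood apart in mean marker levels, lower for squamous cells (0.882), macrophages (0.862) and neutrophils (0.935) and higher for endothelial cells (0.770). The Igf2bp3 value of 2.96 on WT 3 (0.970) was not above background. The share of probes above background on SCC 5 was 90.2% (0.861). No cause was tested.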

How the results depend on the processing

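The calls of Igf2, Igfbp3 and Igfbp5 held under every alternative run, and that of Igf1 under every alternative except slide as a fixed block (3.36, limma adjusted p 0.0769). The number of called IGF genes was 4 in all alternatives other than slide as a fixed block (3), the adjusted p alone (6) and the median probe of each gene (5, which adds the dim Igf2bp3 probe). Of all tested probes, 6954 (22.9%) were called, against 3969 after normexp background correction, 2988 with slide as a fixed block and 14878 by adjusted p alone. Leaving out single arrays gave 6385 to 8135 called probes, the highest without SCC 2, and 4 to 7 called pathway genes in place of 4, again the highest without SCC 2. Called pathway genes were 2 with slide as a fixed block, 7 with array quality weights, 8 without SCC 2 and SCC 5, and 13 by adjusted p alone. Scaling to the 75th percentile moved the median of all tested probes from -0.09 to 0.03 and gave 3504 higher and 3080 lower probes in place of 3014 and 3940. The methods' test gave 5867 probes at an unadjusted p below 0.01 with at least 2-fold, and 6525 after Benjamini-Hochberg adjustment.

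Igf1r changed sign with array quality weights (0.13), without WT 1 (0.0035), without SCC 2 (0.056), without SCC 2 and SCC 5 (0.065) and on both other probes (0.25 and 0.33). Leaving out single arrays gave -0.091 to 0.056 for it. Further signs turned for Igfals (0.27 with 75th percentile scaling, 0.12 with the slide block), Pappa (-0.19) and Igf2bp2 (-0.00061) with the slide block, Igf2bp1 (0.29) without SCC 2 and SCC 5, Stc1 (-0.30) and Insr (0.17) on another probe. None of these passed the threshold in either form. The causes were not tested, except that the slide block rests on 3 tumours and 1 WT lung.

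No pairing by replicate number was seen: same-number deviations correlated at -0.10 to 0.01, and no same-number arrays were each other's best match. With the replicate block 6571 probes were called, and the count of called IGF genes and that of called pathway genes each stayed at 4.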
